A study of Mus musculus with 108 samples.

Results

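The mitochondrial genome encodes 37 genes, and their transcripts were followed here over 1 day in the liver, the kidney and the white adipose tissue (WAT) of mice. The members were all rows of the deposited gene count table whose symbol begins with mt-, which are 37 of 55416 genes: 13 protein-coding genes, 2 ribosomal RNA (rRNA) genes and 22 transfer RNA (tRNA) genes. The series holds 36 RNA-seq libraries per tissue from male C57BL/J mice of 8 to 12 weeks that were kept in 12 h of light and 12 h of darkness with food and water always at hand. Its groups are Bmal1-flox (flox, the control) and Bmal1-iKO (iKO), each sampled in the 3 tissues at 6 zeitgeber times (ZT, hours after lights on), ZT2, ZT6, ZT10, ZT14, ZT18 and ZT22, with 3 libraries per tissue, genotype and time. Bmal1 (symbol Arntl) is a transcription factor at the core of the circadian clock, and the title of the series speaks of an intestinal clock. Which cells lost the gene is not given in the labels, nor whether each library came from a different mouse, so p-values below measure only the spread between these libraries.

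Mitochondria make most of a cell's ATP by passing electrons along the respiratory chain (complexes I to IV) and letting protons flow back through ATP synthase (complex V). The mitochondrial genome gives some of the proteins of complexes I, III, IV and V, while complex II and the other subunits come from nuclear genes. Its strands are transcribed as long precursors that are cut at the tRNA genes lying between the mRNAs and rRNAs, so the steady level of each RNA is set by its own processing and decay as well as by shared transcription. The tissues differ in their use of the chain: hepatocytes and kidney tubule cells are rich in mitochondria, and white adipocytes, which store fat in a large droplet, hold far fewer. By the deposited coordinates (GRCm38), 28 of the 37 genes lie on the plus strand, and mt-Nd6 and 8 tRNA genes lie on the minus strand. The protein-coding genes run from 204 to 1824 bases and the tRNA genes from 59 to 75, shorter than the 150-base reads.

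The libraries held 14428000 to 23428000 counts in liver, 13876000 to 22123000 in kidney and 14103000 to 24415000 in WAT. The targeted gene did not separate the genotypes in these tissues: the level of Arntl on the normalized CPM scale (the usual scaling of a count to library size, normalized over the libraries of all 3 tissues) was 3.21 to 37.8 in flox and 3.10 to 31.0 in iKO liver, and the genotypes also overlapped in kidney and WAT. The labels do not say whether the deletion covers these tissues. The mean log2 CPM of hepatocyte markers was 11.1 to 12.3 in liver and that of proximal tubule markers 8.89 to 10.8 in kidney. Adipocyte markers spread widely in WAT (4.13 to 11.9), where markers of skeletal muscle (-1.61 to 12.2) and of epididymis and testis (-2.58 to 9.66) were high in some libraries. In liver 11 libraries (9 iKO, 2 flox), all 3 of iKO ZT22 among them, stood apart by a mean log2 CPM of cell cycle genes above 2, and results that rest on them are given with and without those 11 genotype, time and number combinations, left out together in each tissue. The same 2 combinations, iKO ZT18 number 1 and iKO ZT22 number 3, which are among the 11, held Xist, an RNA of the inactive X chromosome, in all 3 tissues (log2 CPM 3.77 to 8.97, and at most -0.12 in all other libraries), although the labels give males. In bulk tissue, fewer cells of a type and less RNA per cell cannot be told apart.

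A stretch of mitochondrial DNA also stands in the nuclear genome, and it bears on which of the 37 genes can be measured by counting. By alignment of GENCODE M21 transcripts (GRCm38), pieces of MT:6390-11042 (4653 bases from first to last) match 7 annotated pseudogenes. These form a block on the minus strand of chromosome 1 (chr1:24611535-24616197, 4663 bases). Each pseudogene was aligned by itself, so bases between the pieces were not compared. The span from the first to the last piece holds 11 members whole, called wholly copied below. They are mt-Co2, mt-Atp8, mt-Atp6, mt-Co3, mt-Nd3, mt-Nd4l and 5 tRNA genes (mt-Ts1, mt-Td, mt-Tk, mt-Tg and mt-Tr). The span also holds parts of mt-Co1 (483 bases) and mt-Nd4 (876 of 1378 bases). The 5 tRNA genes had no aligned piece of their own, and mt-Atp8 had one only where it overlaps mt-Atp6. The other 24 lie outside the span. Less similar nuclear copies, of 90.7% to 97.6% identity, were found elsewhere for mt-Nd2, mt-Co1, mt-Co2, mt-Atp6, mt-Nd5, mt-Nd6 and mt-Cytb. The most counted of these, Gm13340, aligned over the whole of mt-Co1 and had a median of 747 and a highest of 8781 counts. Only 2 bases told the aligned transcripts of the block apart from the mitochondrial ones, T3C in mt-Nd3 against Gm28438 and A1066T in mt-Co1 against Gm29216, with positions counted from the 5′ end of the mitochondrial gene. The stretches around both are printed from GENCODE M21, the mitochondrial base and its nuclear counterpart in capitals. A read that lies within an aligned piece and misses these bases matches both places. For reads that reach into the bases between the pieces this is not known.

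mt-Nd3, MT:9459-9491: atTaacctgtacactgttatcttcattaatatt
Gm28438, chr1:24613087-24613119 (minus strand): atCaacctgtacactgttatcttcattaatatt
mt-Co1, MT:6390-6423: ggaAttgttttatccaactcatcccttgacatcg
Gm29216, chr1:24616155-24616188 (minus strand): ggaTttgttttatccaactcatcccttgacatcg

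mt-Nd4l, a small membrane subunit of complex I and the protein-coding member with the largest genotype difference in liver (below), has no base of its own over its first 294 of 297 bases, which are in capitals in the whole gene.

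mt-Nd4l, MT:9877-10173: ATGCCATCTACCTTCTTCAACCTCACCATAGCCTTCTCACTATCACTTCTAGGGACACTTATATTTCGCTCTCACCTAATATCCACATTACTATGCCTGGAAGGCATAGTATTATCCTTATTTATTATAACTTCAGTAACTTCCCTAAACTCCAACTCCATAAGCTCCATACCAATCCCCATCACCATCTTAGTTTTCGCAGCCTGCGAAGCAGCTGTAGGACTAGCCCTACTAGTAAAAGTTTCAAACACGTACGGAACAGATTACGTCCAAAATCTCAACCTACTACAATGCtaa

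Neighbouring genes also share bases on the same strand, which a count by gene cannot divide. mt-Nd4l ends inside the start of mt-Nd4 (7 bases), and mt-Atp8 inside that of mt-Atp6 (43 bases), and the shared bases are in capitals. mt-Nd5 and mt-Nd6 overlap by 14 bases on opposite strands, which the library kit does not tell apart. A count on any member, mt-Nd6 included, can therefore hold RNA of the opposite strand.

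mt-Nd4l and mt-Nd4, MT:10127-10213: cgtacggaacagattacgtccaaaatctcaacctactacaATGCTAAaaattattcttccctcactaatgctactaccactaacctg
mt-Atp8 and mt-Atp6, MT:7897-7999: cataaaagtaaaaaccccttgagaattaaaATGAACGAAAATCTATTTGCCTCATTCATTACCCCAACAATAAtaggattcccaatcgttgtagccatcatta

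Of the 22 tRNA genes, mt-Tp, mt-Tc and mt-Te (carriers of proline, cysteine and glutamate) had the 3 highest levels per kilobase in each tissue. They are printed with mt-Tn (asparagine), the member whose genotype difference varied with the tissue (below). All 4 lie on the minus strand, and no base is in capitals.

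mt-Tp, MT:15356-15422 (minus strand): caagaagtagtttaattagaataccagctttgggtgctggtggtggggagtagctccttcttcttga
mt-Tc, MT:5192-5257 (minus strand): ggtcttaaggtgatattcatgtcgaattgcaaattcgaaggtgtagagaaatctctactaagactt
mt-Te, MT:14071-14139 (minus strand): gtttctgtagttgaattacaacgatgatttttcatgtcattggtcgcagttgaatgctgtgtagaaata
mt-Tn, MT:5089-5159 (minus strand): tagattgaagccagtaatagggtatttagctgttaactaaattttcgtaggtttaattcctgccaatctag

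The 8 minus-strand tRNA genes together held 92.1% of all tRNA counts in liver, 92.9% in kidney and 93.5% in WAT, and the 14 plus-strand ones held the rest. Most of this lay on mt-Tp: over the liver libraries it had 148280 counts, mt-Tc 29451 and mt-Te 26193. The minus-strand mt-Ta, mt-Tq and mt-Ts1 had only 635, 400 and 68. The library kit does not tell the strands apart, so the counts do not show which strand was transcribed. Whether these counts came from mature tRNA or from longer precursors cannot be told apart here.

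Levels of the members were compared with each other as normalized CPM per kilobase of gene, and the values that follow are medians over the 36 libraries of a tissue, both genotypes included. The tRNA genes are shorter than a read, so their levels per kilobase do not compare with those of the longer genes. The catalytic subunit of complex IV, mt-Co1 (MT:5328-6872), stood highest, at 34109 in liver, 24329.7 in kidney and 9489 in WAT. It was the highest of the 37 in 36 of 36 liver libraries, 35 of 36 kidney libraries and 36 of 36 WAT libraries. The single mitochondrial subunit of complex III, mt-Cytb (MT:14145-15288), came next at 25198 in liver, 18329 in kidney and 5691 in WAT, and it was second in 33, 35 and 34 of the 36 libraries. Of the complex I subunits, mt-Nd1, which lies in the membrane arm near the quinone site, ranked number 3 in 31, 33 and 33 of 36 libraries at 18277 in liver, 13134 in kidney and 4240.0 in WAT. The membrane-arm subunits that carry the proton channels followed: mt-Nd2 at 16233 in liver, 8049.9 in kidney and 2399 in WAT, mt-Nd4 at 11993 in liver, 7237 in kidney and 2317 in WAT, and mt-Nd5 at 4905 in liver, 4752 in kidney and 2128 in WAT. mt-Nd6, the one protein-coding gene of the minus strand, stood at 6831 in liver, 5046 in kidney and 2546 in WAT. mt-Nd4l and mt-Nd3, both small subunits of complex I, were far lower, with 153 in liver, 437 in kidney and 40.9 in WAT for mt-Nd4l and 102 in liver, 150.3 in kidney and 13.2 in WAT for mt-Nd3.

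The other core subunits of complex IV stood well below mt-Co1. mt-Co2, which takes electrons from cytochrome c, was at 1594 in liver, 1750.3 in kidney and 266 in WAT, and mt-Co3 at 1198 in liver, 1482 in kidney and 114 in WAT. In complex V, mt-Atp6, which forms part of the proton path, was at 1077 in liver, 1503 in kidney and 143 in WAT, and mt-Atp8 had the lowest level of the 13, 12.7 in liver, 21.4 in kidney and 3.77 in WAT. The order of the 13 split along the nuclear block: in 36 of 36 libraries of each tissue, every one of the 6 wholly copied protein-coding genes was below every one of the other 7. The lowest of the 7 exceeded the highest of the 6 by a median of 4.08-fold in liver (range 1.39 to 14.9), 2.48-fold in kidney (1.06 to 5.06) and 6.47-fold in WAT (3.08 to 17.6). The rRNAs, the RNA core of the mitochondrial ribosome, were low in these libraries: mt-Rnr1 (12S) at 1192 in liver, 712 in kidney and 257 in WAT, and mt-Rnr2 (16S) at 885 in liver, 628 in kidney and 226 in WAT. The labels do not say whether poly(A) RNA was selected or rRNA was removed before sequencing. Such a step would bear on the rRNA counts, which therefore do not give rRNA levels in the tissue. Among the tRNA genes, mt-Tp was at 5483 in liver, 2464 in kidney and 1229 in WAT, mt-Tc at 1054 in liver, 386 in kidney and 171 in WAT and mt-Te at 553 in liver, 659.8 in kidney and 73.9 in WAT. mt-Tf (phenylalanine) had 0 counts in every library, which allows up to 3 counts per library by counting error alone, so that it was not detectable at this depth, and mt-Tv, mt-Td, mt-Tk, mt-Tg and mt-Tt had at most 37 in any library. These 6 passed the filter on low counts in no tissue. mt-Ts1 was also left out in liver, and mt-Ti, mt-Tq, mt-Ts1 and mt-Tr in WAT, which leaves 30 members tested in liver, 31 in kidney and 27 in WAT.

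**Figure D1:**
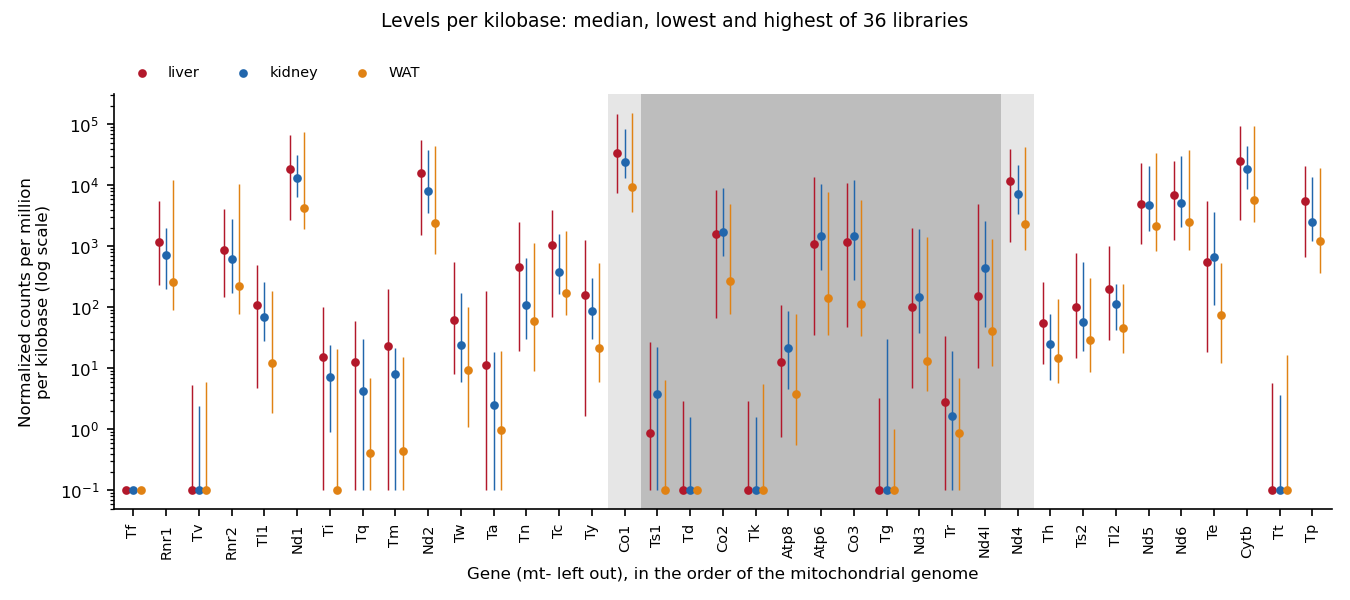
Level of each of the 37 genes in genome order, as normalized CPM per kilobase on a log axis, in liver, kidney and WAT. Points are medians and bars the lowest and highest of 36 libraries, and values of 0 are drawn at 0.1. Light grey marks genes partly within, and dark grey genes wholly within, the span of the nuclear block on chromosome 1 (wholly copied). mt-Co1 has the highest median in each tissue, and the wholly copied protein-coding genes lie below the other protein-coding genes.

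The pseudogenes of the block took counts of their own. For mt-Co2 the copy Gm28661 held a median of 46.8% in liver, 39.5% in kidney and 48.7% in WAT of the counts of gene and copy together, for mt-Atp6 Gm10925 held 37.2% in liver, 32.7% in kidney and 42.2% in WAT, for mt-Co3 Gm28437 held 28.2% in liver, 23.98% in kidney and 33.7% in WAT, for mt-Nd4l Gm10222 held 43.0% in liver, 25.2% in kidney and 41.4% in WAT, and for mt-Nd3 Gm28438 held 81.9% in liver, 56.6% in kidney and 82.1% in WAT. For the partly copied genes the shares were small: Gm29216 took 0.562% in liver, 0.682% in kidney and 0.466% in WAT of the sum with mt-Co1, and Gm28439 0.776% in liver, 1.45% in kidney and 0.828% in WAT of the sum with mt-Nd4. Adding each copy to its gene raised the median level by 1.39- to 5.63-fold in liver, 1.22- to 2.60-fold in kidney and 1.67- to 5.49-fold in WAT for the 5 wholly copied genes that have an annotated copy, and by at most 1.02-fold for mt-Co1 and mt-Nd4. How the authors' counting treated reads that match several places is not given in the sources used here, and its part in these levels was not tested.

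The wholly copied genes were also the most variable part of the mitochondrial mRNA pool. As shares of the protein-coding mitochondrial counts of a library, the 5 genes with no copy in the block made up a median of 48.5% in liver, 52.9% in kidney and 51.3% in WAT, mt-Co1 and mt-Nd4 together 49.6%, 44.1% and 47.1%, and the 6 wholly copied ones 1.70%, 3.20% and 1.20%. The standard deviation (SD) of the log2 share over 36 libraries was 0.157 to 0.309 for the 5 genes without a copy in the block and 0.0972 to 0.234 for mt-Co1 and mt-Nd4, over the 3 tissues, and 0.388 to 1.36 for the wholly copied genes. The 6 wholly copied mRNAs thus varied more against the pool than the other 7 did. Their median counts per library ran from 25 (mt-Atp8) to 10939 (mt-Co2) in liver.

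**Figure D2:**
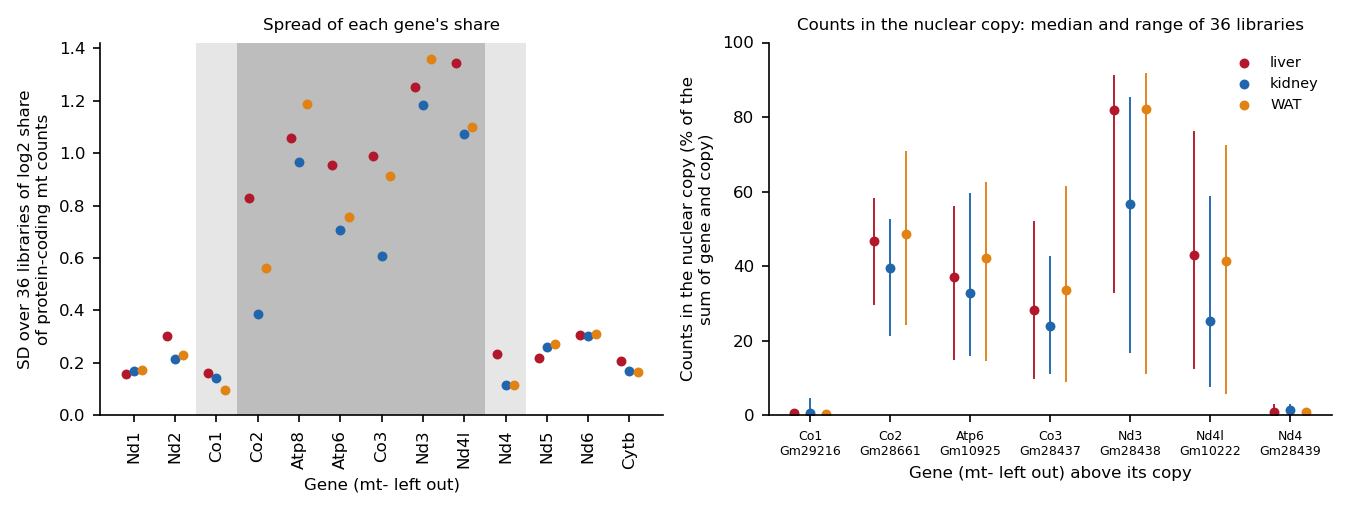
Left, SD over 36 libraries of the log2 share of each protein-coding gene among the protein-coding mitochondrial counts, in each tissue. Right, median percent of the counts of gene and nuclear copy together that fell on the copy. The 6 wholly copied genes have SDs of 0.388 to 1.36, above the 0.0972 to 0.309 of the other 7.

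Mitochondrially encoded genes took a large and variable share of all counts. The members are read from the same libraries and from shared precursors, so counts of members below are not counts of independent genes. The share was 2.43% to 30.6% (median 9.94%) in liver, 6.86% to 30.1% (median 12.4%) in kidney and 1.59% to 46.8% (median 5.23%) in WAT. Protein-coding genes made up nearly all of it, with median shares of 9.50%, 12.2% and 5.09%. The rRNA genes took 0.146%, 0.183% and 0.0898%, and the tRNA genes 0.0357%, 0.0320% and 0.0166%. Libraries of 1 group could differ widely in liver: the 3 flox libraries of ZT14 were at 8.39%, 24.2% and 30.6%, and those of ZT6 at 3.26%, 11.7% and 26.8%. In kidney, libraries of a group lay closer. The flox shares were 17.7%, 20.1% and 30.1% at ZT2 and 9.12%, 9.73% and 11.3% at ZT10, and the iKO shares 10.4%, 13.9% and 14.7% at ZT2 and 7.35%, 8.38% and 8.63% at ZT10. At both times, and at ZT14, every flox kidney library was above every iKO one. The genotypes overlapped at ZT6, at ZT18 and at ZT22, with 13.7%, 15.9% and 24.8% in flox and 17.5%, 17.9% and 20.2% in iKO at ZT22.

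**Figure D3:**
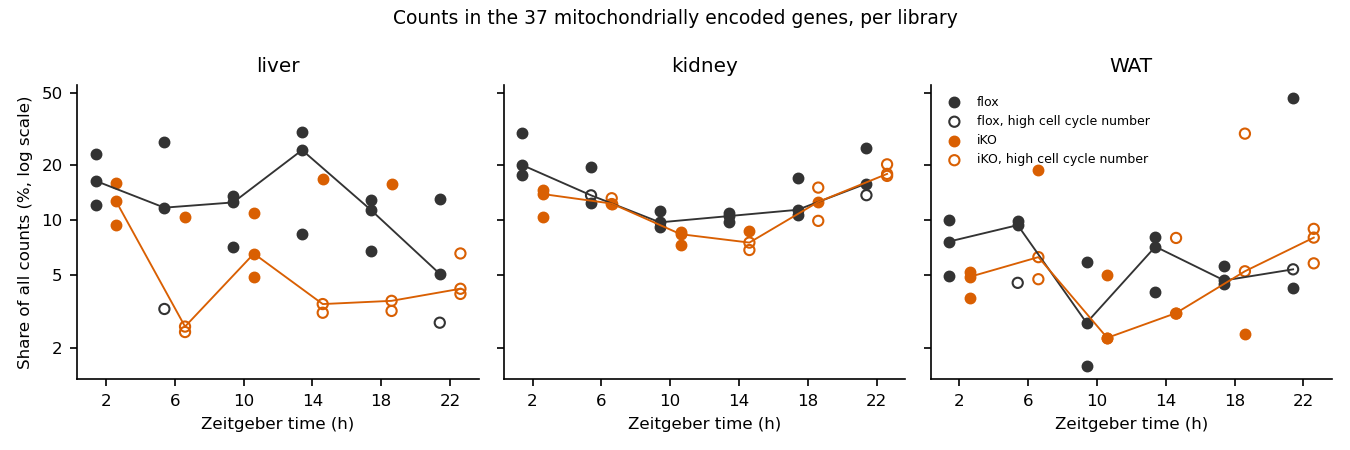
Percent of all counts of a library that fell on the 37 mitochondrially encoded genes (log axis) by zeitgeber time in liver, kidney and WAT, with 3 libraries per genotype and time. Lines join group medians, and open circles are the 11 combinations whose liver library had a high cell cycle level: these lie at 2.43% to 6.57% in liver, and among the other libraries in kidney and WAT.

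In WAT a few libraries held most of the spread. The shares of flox ZT22 number 3 (46.8%), iKO ZT18 number 2 (29.8%) and iKO ZT6 number 3 (18.8%) were the 3 highest, and flox ZT10 number 1 was the lowest at 1.59%. The mean log2 CPM of skeletal muscle markers was -1.61, 6.75 and -1.30 in the 3 highest, so that muscle markers were high in the second of them only. Brown adipocyte markers were at -0.194, -0.115 and -1.77, and adipocyte markers at 10.4, 10.8 and 9.54. In the library of lowest share, 68.2% of the nuclear counts fell on its 100 most counted genes. The 3 libraries of highest share also had the fewest genes with a count of all WAT libraries (17789, 18201 and 20220). The part of these values in the share was not tested.

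The members were lower in WAT than in the other tissues, and 18 of 31 tested members were higher in liver than in kidney in the scaling used. Tissue pairs were compared over the flox libraries, 18 per tissue, as the mean log2 difference over the 6 times, and the 3 pairs share libraries with each other. Libraries of different tissues were treated as independent, since the labels do not tie them to mice. The same 2 combinations held Xist in all 3 tissues, however, so independence is not assured. Counts with the combination as a block are given at the end. The count model was edgeR's quasi-likelihood test in 1 fit over the libraries of all 3 tissues, a gene was called at a Benjamini-Hochberg adjusted p under 0.05 over 22789 genes, and 31 of the 37 members were tested. All 31 were higher in liver than in WAT, where 29.1% of all genes were higher and 74.2% differed in either direction. The 13 protein-coding genes had a median difference of 2.11 (1.30 to 3.26), against -0.40 over all genes tested. In kidney against WAT 30 of 31 were higher (19 without the libraries numbered 1), where 25.1% of all genes were (63.5% in either direction), and mt-Th (histidine; 0.18, adjusted p = 0.621) was not called. The protein-coding median was 1.54, against -0.26 over all genes. mt-Co1 stood 2.04 (standard error, SE, 0.324) higher in liver and 1.05 (SE 0.315) higher in kidney than in WAT, with flox levels of 13595 to 231419 (median 83744) normalized CPM in liver, 26455 to 130755 (median 39102) in kidney and 7662 to 234707 (median 15109) in WAT. The WAT range overlapped those of liver and kidney, and the WAT median lay inside the liver range. Some flox WAT libraries held much of other tissues. Epididymis and testis markers had a mean log2 CPM of 9.26, 9.44 and 9.66 in ZT2 number 2, ZT10 number 3 and ZT18 number 1, with adipocyte markers at 7.13, 6.42 and 7.35. Skeletal muscle markers were at 11.9 in ZT18 number 2. The part of this in the tissue differences was not tested. By smallest p the members that differed between liver and WAT were tRNA genes, mt-Tn (3.45), mt-Tw (3.80), mt-Tl2 (2.47) and mt-Te (3.48) first, followed by mt-Tm, mt-Tq, mt-Tc and mt-Ta. Between kidney and WAT they were mt-Te (3.20) and then genes within the span of the nuclear block: mt-Co3 (3.33), mt-Co2 (2.54), mt-Atp6 (2.98), mt-Atp8, mt-Nd4l, mt-Ts1 and mt-Nd3.

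Liver and kidney differed in which members were high. Of 31 members 18 were higher in liver and 0 lower, where 28.5% of all genes were higher and 62.5% differed in either direction. They were 14 of 16 tested tRNA genes, both rRNA genes (mt-Rnr1 1.37 and mt-Rnr2 1.09) and, of the 13 protein-coding genes, mt-Co1 (0.98, SE 0.315, adjusted p = 0.00488) and mt-Nd2 (0.87, adjusted p = 0.0315). The tRNA genes with the smallest p were mt-Tn (2.55), mt-Th (1.78), mt-Tw (2.19), mt-Ta (2.83), mt-Tc (1.78) and mt-Tl2 (1.18), and mt-Rnr1 and mt-Tm completed the 8 smallest. The median was 1.78 over the tested tRNA genes and 0.39 over the protein-coding ones. This direction rests on the scaling. Scaled by library totals alone, which moved the median of all genes from -0.06 to -0.82, 7 members were higher in liver and 6 lower, 5 of the 6 protein-coding, and the protein-coding median was -0.53. On the same totals the differences from WAT kept their sign, with 29 members called in liver and 28 in kidney against WAT and protein-coding medians of 0.95 and 1.34.

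Between genotypes, a complex I gene, mt-Nd4l, and 5 tRNA genes fell in iKO liver, and all other tested members lay below 0 without passing the test. On average over the 6 times 30 of 30 tested members had a log2 difference (iKO minus flox) below 0, and 6 of the 30 were called, all lower, where 2.64% of all genes were called and 1.56% were lower. The members are not independent of each other, and leaving out single libraries moved many of them together. The median was -1.29 over the 30 members and -1.12 over the 13 protein-coding genes (-2.40 to -0.94), against 0.00054 over all genes tested. DESeq2 called 22 members. An unadjusted p under 0.05 was found for 29 of the 30 members and for 4079 of 16582 genes. Scaled by library totals alone 7 were called, all lower, and the protein-coding median was -0.86 where that of all genes moved to 0.28. The count rested on single libraries: it was 3 without flox ZT6 number 2, 20 without flox ZT22 number 1, 23 without flox ZT6 number 1 or without iKO ZT14 number 3, 24 without iKO ZT6 number 3 and 29 without iKO ZT18 number 3, and 4 to 7 without any other library.

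mt-Nd4l had 3.38 to 1478 (median 136) normalized CPM in the 18 flox and 2.99 to 237 (median 21.1) in the 18 iKO liver libraries, a log2 difference of -2.40 (SE 0.561, edgeR adjusted p = 0.0214). The genotypes overlapped, and the highest libraries were flox. With the copy Gm10222 added to it, the difference was -2.01 (adjusted p = 0.0328). The other 5 called members were tRNA genes. mt-Tw (tryptophan) was at 0.534 to 36.9 (median 10.6) in flox and 0.689 to 7.97 (median 1.79) in iKO (-1.96, SE 0.437, adjusted p = 0.0170). mt-Th (histidine) fell by 1.32 on the log2 scale (adjusted p = 0.0173), mt-Ta (alanine) by 2.16 (adjusted p = 0.0180), mt-Tl2 (leucine) by 1.30 (adjusted p = 0.0286) and mt-Tr (arginine) by 2.14 (adjusted p = 0.0428). mt-Tr lies within the span of the nuclear block, and mt-Tr and mt-Ta had medians of 0.572 and 2.11 normalized CPM in flox, so each rests on few counts per library. Leaving out single libraries lost the call of mt-Tr in 24 of 36 cases, of mt-Tl2 in 8 and of mt-Nd4l in 1, and those of mt-Tw, mt-Th and mt-Ta in 0. More abundant members had smaller differences that did not pass the test: mt-Co1 was at 13595 to 231419 (median 83744) in flox and 11633 to 116542 (median 30429.6) in iKO (-1.10, SE 0.368, adjusted p = 0.0869), mt-Nd5 differed by -1.15 (adjusted p = 0.0769) and mt-Rnr1 by -1.02 (adjusted p = 0.0735). At single times 0 members were called at each of the 6 (edgeR; unadjusted p under 0.05 for 1, 9, 1, 9, 3 and 2 of 30 from ZT2 to ZT22; DESeq2 called 3 over the 6 times), where 0% of genes were called except 0.0362% at ZT18. The smallest adjusted p was 0.114, for mt-Atp8 at ZT18 (-3.27), and that for mt-Nd4l at ZT6 (-4.63) was 0.979. The smallest p at the other times belonged to mt-Ta (ZT2), mt-Th (ZT10 and ZT14) and mt-Rnr2 (ZT22).

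The liver difference moved with the 11 libraries of high cell cycle level. These had mitochondrial shares of 2.43% to 6.57%, and the other 25 had 4.86% to 30.6%. Within iKO, the 9 of them were at 2.43% to 6.57% (median 3.47%) and the other 9 at 4.86% to 16.9% (median 10.9%). Within flox, 2 were at 2.74% and 3.26% and the other 16 at 5.08% to 30.6% (median 12.7%). tRNA counts separated them without overlap, at 0.00633% to 0.0153% of counts against 0.0197% to 0.119%, while rRNA counts overlapped slightly (0.0436% to 0.0982% against 0.0941% to 0.590%). In the same libraries macrophage markers had a mean log2 CPM of 8.37 to 9.64 against 2.64 to 7.12, and hepatocyte markers 11.1 to 12.3 against 11.5 to 12.3. Their part in the difference was not tested. Without those 11 libraries, which leaves 5 times, 2 members were called: mt-Tw (-1.48, adjusted p = 0.0394) and mt-Ta (-1.42, adjusted p = 0.0441). mt-Nd4l was then at -1.92 (adjusted p = 0.111), mt-Co1 at -0.58 (adjusted p = 0.272) and the median over members at -0.66. Without the 2 Xist combinations alone, mt-Ta was the 1 member called (adjusted p = 0.0466). In kidney the libraries of the same 11 combinations had shares of 6.86% to 20.2% (median 13.7%) against 7.35% to 30.1% (median 11.4%), so that they were not low there, while interferon-stimulated genes were high in both tissues (4.42 to 6.97 against 1.69 to 4.67 in kidney). Whether libraries with the same number came from the same mouse is not given in the labels.

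**Figure D4:**
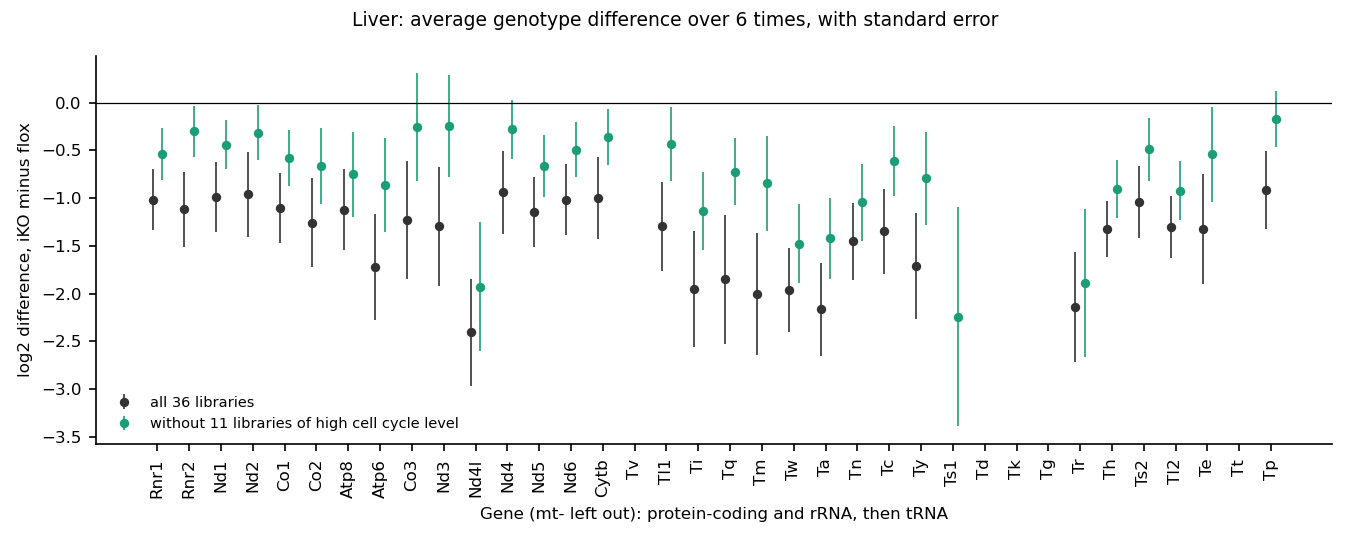
Average log2 difference (iKO minus flox) of each tested member in liver with its SE, from all 36 libraries and without the 11 libraries of high cell cycle level, and genes without a point were not tested. All 30 points of the full set lie below 0, and the median moves from -1.29 to -0.66 without the 11.

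A rhythm of the members was not shown in liver. A 24 h cosine fitted per genotype called 0 of 30 members in flox (edgeR; unadjusted p under 0.05 for 0; 0.772% of all genes called; smallest adjusted p = 0.350, mt-Atp8) and 0 in iKO (unadjusted 1; 0.0844% of all genes; 0.391, mt-Tn). DESeq2 also called 0 in both. Without the 11 libraries of high cell cycle level, mt-Tw was called in flox. The change of rhythm between genotypes (smallest p for mt-Tn) and the genotype by time test (mt-Atp8) called 0 members by edgeR and by DESeq2 (unadjusted 1 and 0) and 0% of all genes.

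In kidney, members of complexes I and IV and tRNA genes were called rhythmic in both genotypes, and members of complexes III and V in flox alone. The complex III and V calls were lost without flox ZT2 number 3 (below). In flox kidney 14 of 31 tested members had a 24 h rhythm (9 protein-coding, 5 tRNA and 0 rRNA genes), where 5.07% of all genes did, and in iKO kidney 11 of 31 (6 protein-coding, 5 tRNA), where 4.22% did. An unadjusted p under 0.05 was found for 24 and 23. The fitted peaks of the called members fell within ZT0.37 to ZT2.84 in flox, around lights on, and between ZT17.0 and ZT0.75 in iKO. The median amplitude (log2, mean to peak) over the 31 members was 0.76 in flox and 0.75 in iKO, against 0.25 and 0.26 over all genes tested.

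mt-Co1 had the smallest p in flox kidney. Its levels in normalized CPM were 61018, 64582 and 130755 at ZT2, 36889.6, 41315 and 53774 at ZT6, 27611, 29768 and 34363 at ZT10, 26455, 30934 and 33857 at ZT14, 31982, 33735 and 51647 at ZT18 and 42850.0, 51207 and 73694 at ZT22. The ZT2 libraries were above every library of ZT10 and ZT14, and the fitted wave was 2.71-fold from trough to peak with the peak at ZT0.950 (edgeR adjusted p = 0.00451). In iKO kidney the same gene was at 32337, 46788 and 52041 at ZT2, 21849.9, 21976 and 26514 at ZT10, 20279, 23980.1 and 27778 at ZT14 and 52592, 53002 and 61829.8 at ZT22, 2.37-fold from trough to peak with the peak at ZT23.6 (adjusted p = 0.0173). The ZT22 libraries were the highest of these 4 times in iKO.

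Of the complex I genes, mt-Nd6, whose counts are not assigned to a strand, had a larger wave, 3.78-fold from trough to peak with the peak at ZT2.04 in flox (adjusted p = 0.00547) and 3.24-fold from trough to peak with the peak at ZT0.350 in iKO (adjusted p = 0.0173). Its flox libraries were at 5291, 6605 and 15486 at ZT2 and 1938, 2152 and 2477 at ZT14. mt-Nd2 was 3.26-fold from trough to peak with the peak at ZT1.58 in flox (adjusted p = 0.00780) and 3.03-fold from trough to peak with the peak at ZT0.174 in iKO (adjusted p = 0.0140). mt-Nd4, mt-Nd5 and mt-Nd1 were called in flox with peaks at ZT1.15, ZT1.80 and ZT0.369, and mt-Nd4 and mt-Nd5 also in iKO (ZT23.8 and ZT0.750). For mt-Nd1 in iKO the adjusted p was 0.0628. mt-Cytb of complex III was called in flox (2.14-fold from trough to peak with the peak at ZT0.765, adjusted p = 0.0248), and in iKO its adjusted p was 0.0861. mt-Co3 of complex IV was called in both (3.92-fold, adjusted p = 0.0327 in flox and 3.98-fold, adjusted p = 0.0309 in iKO) and mt-Atp6 of complex V in flox alone (adjusted p = 0.0306, and 0.0516 in iKO). Among the tRNA genes, mt-Tw (6.10-fold, peak at ZT2.05, adjusted p = 0.00457) and mt-Ts2 (serine; 5.52-fold, peak at ZT2.84) had larger waves than the mRNAs named above, and mt-Tc, mt-Te and mt-Tp were also called in flox. In iKO mt-Tn had the smallest p, 6.10-fold from trough to peak with the peak at ZT17.0 (adjusted p = 0.00642), with 10.1, 15.0 and 45.8 normalized CPM at ZT18. The 45.8 of number 2 was the highest of all kidney libraries. mt-Ts2, mt-Tp, mt-Tw and mt-Tc were the other iKO tRNA calls.

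A change of rhythm between genotypes was not shown: its test called 0 of 31 members (edgeR; unadjusted p under 0.05 for 4; smallest for mt-Tn, adjusted p = 0.9997) and 0% of all genes, so a gene called in flox and not in iKO is not shown to differ. The mitochondrial rRNA genes were called in neither genotype (mt-Rnr1 adjusted p = 0.155 in flox and 0.245 in iKO, and mt-Rnr2 0.0712 and 0.115). Single libraries carried part of these counts. Without flox ZT2 number 3, 4 members were called in flox in place of 14: mt-Co1, mt-Nd2, mt-Nd6 and mt-Tw. None of complexes III or V was among them. That library had the highest mitochondrial share of the kidney (30.1%) and the fewest genes with a count (19167). In iKO 17 were called without iKO ZT2 number 1, 6 without iKO ZT10 number 1 and 7 without iKO ZT22 number 1 or number 2, in place of 11. Without the 11 combinations of high liver cell cycle level, which removes all of iKO ZT22, 0 were called in iKO.

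**Figure D5:**
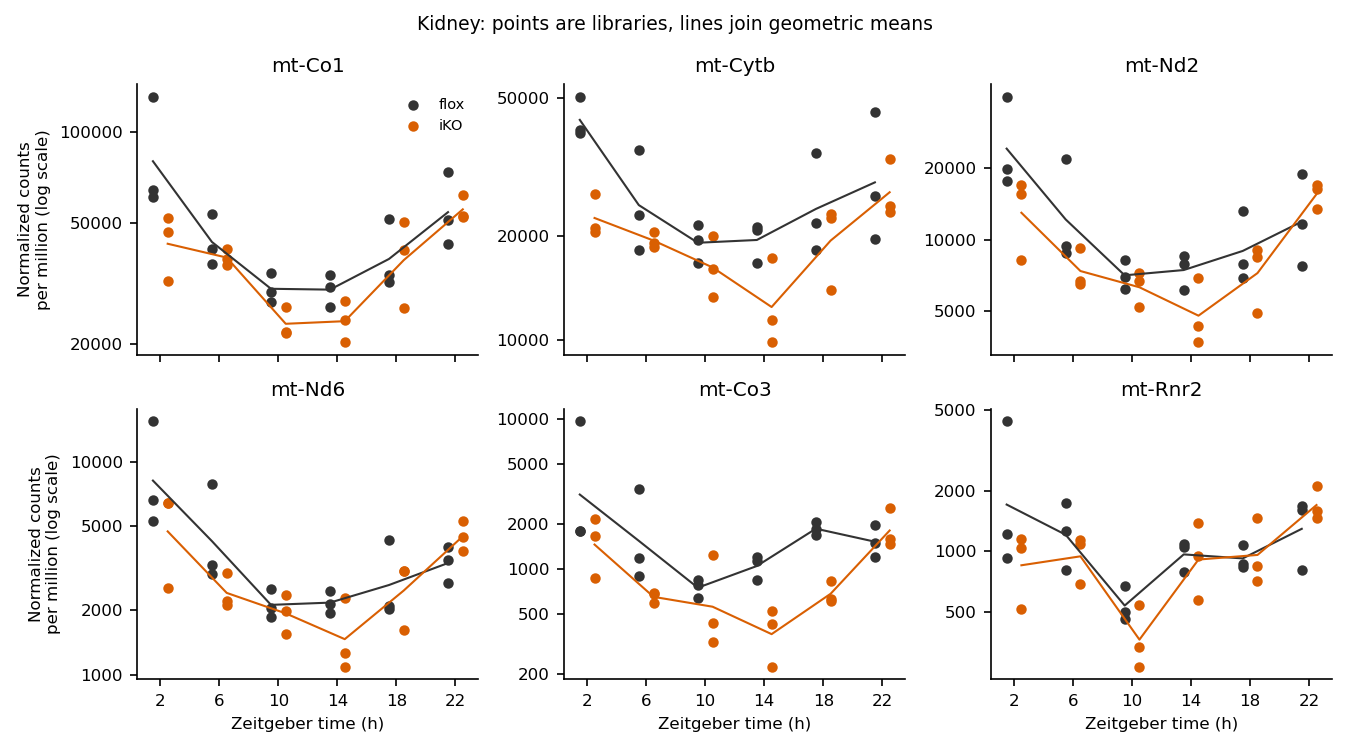
Normalized CPM (log axis) of mt-Co1, mt-Cytb, mt-Nd2, mt-Nd6, mt-Co3 and mt-Rnr2 in kidney by zeitgeber time, with 3 libraries per genotype and time as points and lines through the geometric means. mt-Co1 has its lowest geometric means at ZT10 and ZT14 in both genotypes, and mt-Rnr2 was called rhythmic in neither.

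Between genotypes, complex IV and III genes came nearest to a call in kidney, and none passed by edgeR with all libraries. On average over the 6 times 0 of 31 members were called (edgeR; unadjusted p under 0.05 for 15, and for 1662 of 17630 genes; DESeq2 called 2), where 0.164% of all genes were. All 13 protein-coding genes were below 0, with a median of -0.45 against -0.0024 over all genes. mt-Co3 had the smallest p (-0.97, SE 0.217, adjusted p = 0.0534), and mt-Cytb differed by -0.45 (SE 0.129, adjusted p = 0.156). mt-Co3 alone was called, as 1 member, without flox ZT2 number 1 or 2, flox ZT6 number 1, iKO ZT10 number 3, iKO ZT18 number 3 or iKO ZT22 number 2. The genotypes separated most at ZT2. There the 3 iKO libraries lay below the 3 flox libraries for 7 of 13 protein-coding genes, where 5.07% of all genes did. The count was 4 at ZT6 (3.24% of all genes), 2 at ZT10 (7.58%), 4 at ZT14 (6.96%), 1 at ZT18 (9.72%) and 0 at ZT22 (5.23%). mt-Cytb was at 39665, 40466 and 50419 normalized CPM in flox and 20506, 21123 and 26472 in iKO at ZT2, without overlap, and at 19619, 26033 and 45640.2 and 23504, 24361 and 33439.9 at ZT22, where the genotypes overlapped. By test, 0 members were called at any single time (unadjusted p under 0.05 for 16, 11, 1, 5, 4 and 6 from ZT2 to ZT22; DESeq2 called 1 over the 6 times), where 0% of genes were called except 0.0113% at ZT22. The smallest p belonged to mt-Co1 (ZT2), mt-Tp (ZT6), mt-Tc (ZT10), mt-Tl2 (ZT14), mt-Co3 (ZT18) and mt-Th (ZT22). The genotype by time test called 0 (edgeR and DESeq2; unadjusted 8; 0% of all genes; smallest adjusted p = 0.628, mt-Tp), so a change of the difference over the day was not shown.

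In WAT, where the spread between libraries of a group was largest (biological coefficient of variation 0.785, against 0.302 in kidney and 0.514 in liver), 0 of 27 tested members were called in any comparison, and 0% of all genes were called in each. For the genotype average an unadjusted p under 0.05 was found for 1 member (mt-Tm, methionine; adjusted p = 0.99997), and the protein-coding median was -0.21. mt-Co1 was at 7662 to 234707 (median 15109) normalized CPM in flox and 5565 to 120111 (median 14228) in iKO, and the genotypes overlapped. The sign of the median rested on single libraries: it was 0.24 without flox ZT22 number 3 and -0.58 without iKO ZT18 number 2, the 2 libraries of highest mitochondrial share. The largest unadjusted counts were at ZT22, with 12 of 27 members (smallest for mt-Rnr1, -3.68, adjusted p = 1), and at ZT18 with 6 (mt-Tn, 3.32, adjusted p = 0.779), the times of those same libraries, and 0, 1, 1 and 0 at the other times, where mt-Ts2, mt-Co3, mt-Te and mt-Ta had the smallest p. DESeq2 called 1 member over the single times. A 24 h rhythm in flox had an unadjusted p under 0.05 for 15 members. mt-Rnr2 had the smallest, with 19.0-fold from trough to peak and a peak at ZT22.5 (adjusted p = 0.147), and DESeq2 called 4. At ZT22, mt-Rnr2 was at 234, 444 and 16752 normalized CPM in flox, the highest in number 3. The iKO rhythm (mt-Atp8) and the genotype by time test (mt-Rnr1) each had 3 unadjusted and the change of rhythm (mt-Rnr1) had 0, and DESeq2 called 0 in these and in the genotype average.

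Across tissues, a test of whether the average genotype difference was the same in all 3 called 1 of 31 members, mt-Tn (adjusted p = 0.0449), where 0.478% of all genes were called and 9 members had an unadjusted p under 0.05. mt-Tn was at 1.38 to 177 (median 48.0) normalized CPM in flox and 2.69 to 109.7 (median 13.5) in iKO liver (-1.45, SE 0.406, adjusted p = 0.0502), at 2.80 to 19.4 (median 8.03) and 2.13 to 45.8 (median 7.81) in kidney (0.04) and at 1.69 to 13.1 (median 4.42) and 0.638 to 80.0 (median 4.18) in WAT (0.57). iKO ZT18 number 2 had the highest value in both kidney (45.8) and WAT (80.0). The call was lost under 5 of 8 other settings. These were a block for each genotype, time and number combination, which pairs the tissues, no filter, and library totals alone. The other losses were without the 11 combinations of high liver cell cycle level and without the 2 with Xist. Without the libraries numbered 1, or those numbered 2, 0 members were called, and without those numbered 3 there were 21. For the other 30 members a difference between tissues was not shown.

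The nuclear genes that serve mitochondrial DNA and RNA, and the nuclear subunits, were read from 8 lists. Their counts stand beside the 5.07% of all genes rhythmic in flox kidney and the 4.22% in iKO kidney. Of 24 genes of mitochondrial DNA maintenance and transcription, 4 were rhythmic in flox kidney: Esrra (peak at ZT13.2), a nuclear receptor of mitochondrial genes, Polg (ZT12.5), the catalytic subunit of the mitochondrial DNA polymerase, Ppargc1b (ZT9.50), a coactivator of such receptors, and Mterf3 (ZT2.10), a factor of the mitochondrial transcription termination family. Mterf3 peaked within the span of the called members and the other 3 outside it. Of 33 genes of mitochondrial RNA processing and decay 2 were, the poly(A) polymerase Mtpap (ZT2.03) and Ptcd1 (ZT12.5), and of 77 mitochondrial ribosomal protein genes 4 were, Mrpl33 (ZT0.225), Mrps17, Mrps12 and Mrps25, which is near the share of all genes. Of the nuclear subunits, 4 of 37 of complex I were rhythmic, Ndufb2 at ZT1.49 and Ndufs6, Ndufa3 and Ndufb8 at ZT14.5, ZT16.1 and ZT14.0, and 1 each of complexes III (Uqcr11, ZT14.9), IV (Cox5b, ZT15.0) and V (Atp5k, ZT15.1). Single calls in such short lists are not shown to exceed the share of all genes. Of 19 mitochondrial aminoacyl-tRNA synthetase genes 0 were called (edgeR).

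In iKO kidney 5 of the 24 maintenance and transcription genes were rhythmic, among them Gabpb1 (peak at ZT21.7), Mterf3 (ZT0.533), Polg (ZT12.0) and Esrra (ZT11.2), and 4 of 77 ribosomal protein genes (Mrpl33, Mrps30, Mrps12 and Mrpl18), 1 of 37 complex I genes (Ndufb2, ZT0.514) and 1 of 17 complex V genes (Atp5k, ZT12.6). The counts of ribosomal protein and complex V genes are near the share of all genes, and that of complex I genes is below it. Mrpl33 and Ndufb2 peaked shortly after lights on in both genotypes, while 6 of the 7 nuclear subunits called in flox peaked between ZT14.0 and ZT16.1, early in the dark. These 7 are few calls, and a shared peak of the nuclear subunits was not tested. The median amplitude of the nuclear complex I genes was 0.27 in flox and 0.22 in iKO kidney, against 0.76 and 0.70 over the 13 protein-coding members. In liver 1 of these nuclear genes was rhythmic in flox, Esrra (ZT13.5, adjusted p = 0.0150), and 0 in iKO. For the genotype average, 0 genes of the 8 lists were called in any tissue (edgeR). In liver the median difference was -0.29 over nuclear complex I, -0.15 over complex III, -0.08 over complex IV and -0.21 over complex V genes, beside -1.12 over the 13 protein-coding members, and in kidney the 4 lay between -0.02 and 0.01, beside -0.45.

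Nuclear subunits were also higher in liver and in kidney than in WAT, where 29.1% and 25.1% of all genes were. The markers of other tissues in WAT libraries, given with the members, limit these comparisons too. In liver 37 of 37 nuclear complex I genes were higher than in WAT (median 1.55; Ndufs8, Ndufa9, Ndufa8 and Ndufb6 had the smallest p), 9 of 9 of complex III (1.58), 11 of 17 of complex IV with 4 lower (1.18) and 17 of 17 of complex V (1.72). In kidney 36 of 37, 9 of 9, 12 of 17 with 3 lower, and 17 of 17 were higher than in WAT (medians 1.21, 1.58, 1.12 and 1.39). Genes of mitochondrial DNA maintenance and transcription were higher in 18 of 24 cases in liver (1 lower) and in 15 of 24 in kidney (3 lower), among them Tfam, which packs mitochondrial DNA and starts its transcription (0.86 and 0.94), and Polrmt, the mitochondrial RNA polymerase (1.21 and 1.09). Ppargc1a, a coactivator of mitochondrial biogenesis, stood 3.81 higher in kidney than in WAT and 2.31 lower in liver than in kidney on the log2 scale. Between liver and kidney 22 of 37 nuclear complex I genes were higher in liver and 4 lower (median 0.42), where 28.5% of all genes were higher. This pair depends on the scaling, as given for the members. Of complex V, Atp5b (-1.32) and Atp5a1 (-0.90) were lower in liver, while 7 of 17 complex V genes were higher.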

How the data were processed

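RNA-seq gene counts of 36 libraries per tissue (3 tissues, 2 genotypes, 6 times, 3 libraries per group) were read from the authors' deposited count table, which holds whole-number counts per gene, with no scaling. Per the labels' protocols, RNA was isolated with Trizol and libraries were made with the NEBNext Ultra RNA kit and read on an Illumina HiSeq instrument with 150-base reads. The submitters' processing notes name HISAT2 2.0.4, featureCounts 1.5.0-p3, DESeq2 1.16.1 and GRCm38 (mm10). The handling of reads that match several places is not given in the sources used here, and the library totals (the depth of each sample) are those of the count table, so the precision of a member follows its own count.

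Members, gene lists and tests were chosen with earlier results of these data known. The named genes are the 13 protein-coding and 2 rRNA members, the tRNA members called in a comparison or among the 3 highest per kilobase in a tissue, in each comparison up to 8 called members by smallest p or, where none was called, the member with the smallest p, and of each nuclear list up to 4 called genes by smallest p. For the tissue pairs the lists are given mainly by their counts, with a few of those genes.

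Counts were scaled by trimmed means of M values (TMM), filtered with filterByExpr, and tested with edgeR 4.0.16 (quasi-likelihood F test, robust) in R 4.3.3, in 1 fit per tissue with a mean for each genotype and time, and in 1 fit over all 3 tissues for tissue pairs and for genotype by tissue. Rhythms were tested with a 24 h cosine and sine per genotype. P-values were adjusted by Benjamini-Hochberg over all genes tested, and 0.05 was the threshold. A log2 difference is iKO minus flox, averaged over the 6 times unless a time is named. Levels are CPM over the effective library sizes of the fit over all 3 tissues, and per kilobase they are divided by gene length. Shares, medians over members and composition are descriptions without a test. No same-group pair of libraries matched within counting noise (lowest chi-square per degree of freedom 10.5).

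Nuclear copies were found by aligning GENCODE M21 transcripts of the 37 genes to nuclear transcripts with blastn 2.17.0 (at least 90% identity over 100 bases), and copies of at least 99% identity over 200 bases were summed with their gene in an added alternative. The deposited coordinates equal those of GENCODE M21 for 37 of 37 mitochondrial genes and for 1457 of 52046 nuclear genes, and the nuclear coordinates printed are those of GENCODE M21. The scripts were tested on simulated counts. Alternatives were the Wald and likelihood ratio tests of DESeq2 1.42.0, size factors of DESeq2, totals without the members, library totals alone, no filter, a replicate block, and leaving out each library, the 11 combinations of high liver cell cycle level or the 2 with Xist. The summed copies, WAT without its 3 libraries of highest share, and leaving out a replicate number in all tissues were added after the data were seen.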

Additional observations from a re-analysis of the deposited data

Results flagged for a closer look

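The average genotype difference of mt-Tn varied with the tissue by the test of that variation (edgeR quasi-likelihood F test, adjusted p = 0.0449, 1 of 31 members): iKO minus flox was -1.45 (SE 0.406) in liver, 0.04 in kidney and 0.57 in WAT on the log2 scale. The call was lost with a replicate block, with no filter on low counts, under library totals alone, without the 11 combinations of high liver cell cycle level, without the 2 with Xist, and without the libraries numbered 1 or 2.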

How the results depend on the processing

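No called genotype difference reversed its direction under the alternatives run. In liver against kidney mt-Nd2, called higher at 0.87, was at -0.06 and not called under library totals alone. The protein-coding medians of WAT by genotype (0.24 without flox ZT22 number 3) and of liver against kidney (-0.53 under library totals alone) changed sign. The number of called members held to within 1.5 times, or stayed at 0, under DESeq2 size factors, totals of nuclear genes and summed nuclear copies. For the liver genotype average, 6 members became 3 with no filter, 16 with the replicate block, 2 without the cell cycle combinations, 1 without the Xist combinations and 22 by DESeq2. DESeq2 also called 3 members at single times in liver, 2 in kidney on average and 1 at single times, and in WAT 1 at single times and 4 for the flox rhythm. Without the cell cycle combinations 1 member was rhythmic in flox liver and 0 in iKO kidney. Genotype by tissue called 0 under library totals alone, with no filter, with the replicate block and without the cell cycle or the Xist combinations. Leaving out 1 library at a time gave 3 to 29 members in liver and 0 to 1 in kidney for the genotype average, and 4 to 16 and 6 to 17 for the flox and iKO rhythms in kidney. Leaving out 1 replicate number gave 16 for liver against kidney, 29 to 31 for liver against WAT, 19 to 29 for kidney against WAT and 0 to 21 for genotype by tissue. Without single libraries, the protein-coding median ran from -1.38 to -0.95 in liver, -0.49 to -0.34 in kidney and -0.58 to 0.24 in WAT, and the difference of median share (iKO minus flox, in percent of counts) from -7.42 to -5.73, -1.39 to -0.0843 and -0.53 to -0.27. For the called members of smallest p in each comparison, 815 leave-outs kept the call and 52 lost it. The weaker flox kidney rhythm calls, such as mt-Cytb and mt-Atp6, are not in this tally. For a rhythm call it includes libraries of the other genotype, which has its own cosine and sine. For tissue pairs and genotype by tissue, a leave-out removed a replicate number from all tissues. The tally therefore does not give the share of calls that withstand losing a library. Library totals alone moved the median of all genes by 0.28 in liver, 0.075 in kidney and 0.11 in WAT.

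Replicate numbers did not meet the criterion for pairing, a correlation over 0.1 in every pair: deviations of same-numbered flox and iKO libraries had median correlations of 0.0252 in liver, 0.0228 in kidney and 0.108 in WAT. Same-numbered libraries of different tissues had medians of 0.0188 to 0.0621, against -0.0311 to -0.00847 for different numbers, and in liver and kidney 11 of 36 same-numbered pairs were over 0.1 against 3 of 72. With the combination as a block, the tissue pairs called 15 members in liver against kidney, 31 in liver against WAT and 29 in kidney against WAT. With the number as a block mt-Co3 was called in kidney (-0.97, adjusted p = 0.0413), as the 1 member of the average. Not run were leave-outs of each of the 36 combinations for the tissue pairs and genotype by tissue, and genotype by tissue by DESeq2. The cause of these changes was not tested. Members with few counts (mt-Ta, mt-Tr, mt-Atp8) are limited by depth.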
